A study of Homo sapiens with 2 samples.

Results

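The genes described here are chemokines, interleukins and their receptors: 127 of the 19775 genes that the arrays measured through a probe set with a single gene symbol. They were taken by symbol (the CXCL, CCL, CX3CL and XCL chemokines, their CXCR, CCR, CX3CR and XCR receptors, and every gene named as a numbered interleukin or a part of its receptor), leaving out IL1A, IL1B, IL6, IL6R, IL6ST, IL11 and IL18. By role they were 69 ligands, 53 receptors or receptor subunits, 4 antagonists or binding proteins, and IL4I1, an enzyme that only shares the IL prefix. HCC4006 is a human NSCLC line, sensitive to erlotinib, with a deletion in exon 19 of EGFR. HCC4006ER cells are its erlotinib-resistant derivative, labelled as having an EMT phenotype, obtained by keeping HCC4006 cells in rising concentrations of erlotinib for months; both lines carry the EGFR deletion. Cells of both lines were grown for 48 hours without further treatment, 3 RNA preparations per line were pooled, and each pool was hybridized to 1 array, so that the resistant state is represented by a single derived population.

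Chemokines are small secreted proteins that guide migrating cells through G protein-coupled receptors, and interleukins are secreted signals that act through multi-subunit receptors, most of which pass the signal to JAK kinases and STAT factors, or, for the IL-1 and IL-17 families, to NF-κB. Many are used mainly by leukocytes. Epithelial cells, including those of the airway and of lung carcinomas, are nevertheless known to make neutrophil- and monocyte-attracting chemokines and to carry receptors for IL-4, IL-13, IL-15, IL-17 and IL-22, through which immune cells act on them.

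A MAS5 signal was taken as above background where it exceeded the 95th percentile of 127 probe sets for olfactory and bitter taste receptors, a signal of 96.2 for HCC4006 and 91.6 for HCC4006ER. Below, a pair of signals always gives the array labelled HCC4006 first and the array labelled HCC4006ER second. A gene was counted past 1.5-fold, the size used by the study, if its brighter signal was above background and the ratio reached 1.5 after any dimmer value had been set to that level; where the dim side was under that level the fold is given as "at least", and where both sides were under it no fold is given. Each line had a single array, so nothing was replicated or tested, and a difference between the arrays cannot be told apart from a difference between these 2 pools. The only measure of disagreement is that between probe sets of a gene, whose log2 ratios varied with a pooled SD of 0.27 over 5264 genes. CDH1, the epithelial cadherin, read 10469 and 11041 and EPCAM 11129 and 11642, so neither was lower on the array labelled as EMT, and every direction given below holds for the arrays as labelled. Because whole cultures were measured, fewer cells with a transcript and less transcript per cell cannot be told apart.

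Of the 127 genes, 34 (26.8%) were above background on at least 1 array, 24 of them on both, while 60.2% of all 19775 genes were above background. Of these 34, 8 were higher past 1.5-fold on the array labelled HCC4006ER (23.5%) and 7 were lower (20.6%). Over all 11896 genes above background, 7.99% were higher and 11.2% were lower by the same rule. The higher genes were the cytokine IL32, the chemokines CXCL16, CXCL8 and CCL2, the receptor-like IL1RAPL1, the inhibitors IL18BP and IL1RN, and IL23A. The lower genes were IL15 and 6 receptor subunits, IL15RA, IL1R1, IL1RAP, IL17RB, IL17RC and IL27RA. When both arrays were scaled to the same median, which moved every log2 ratio up by 0.14, all 8 higher genes kept their call and IL17RC and IL27RA lost theirs, leaving 5 lower; over all genes the split turned from 950 higher and 1328 lower to 1475 higher and 880 lower.

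**Figure D1:**
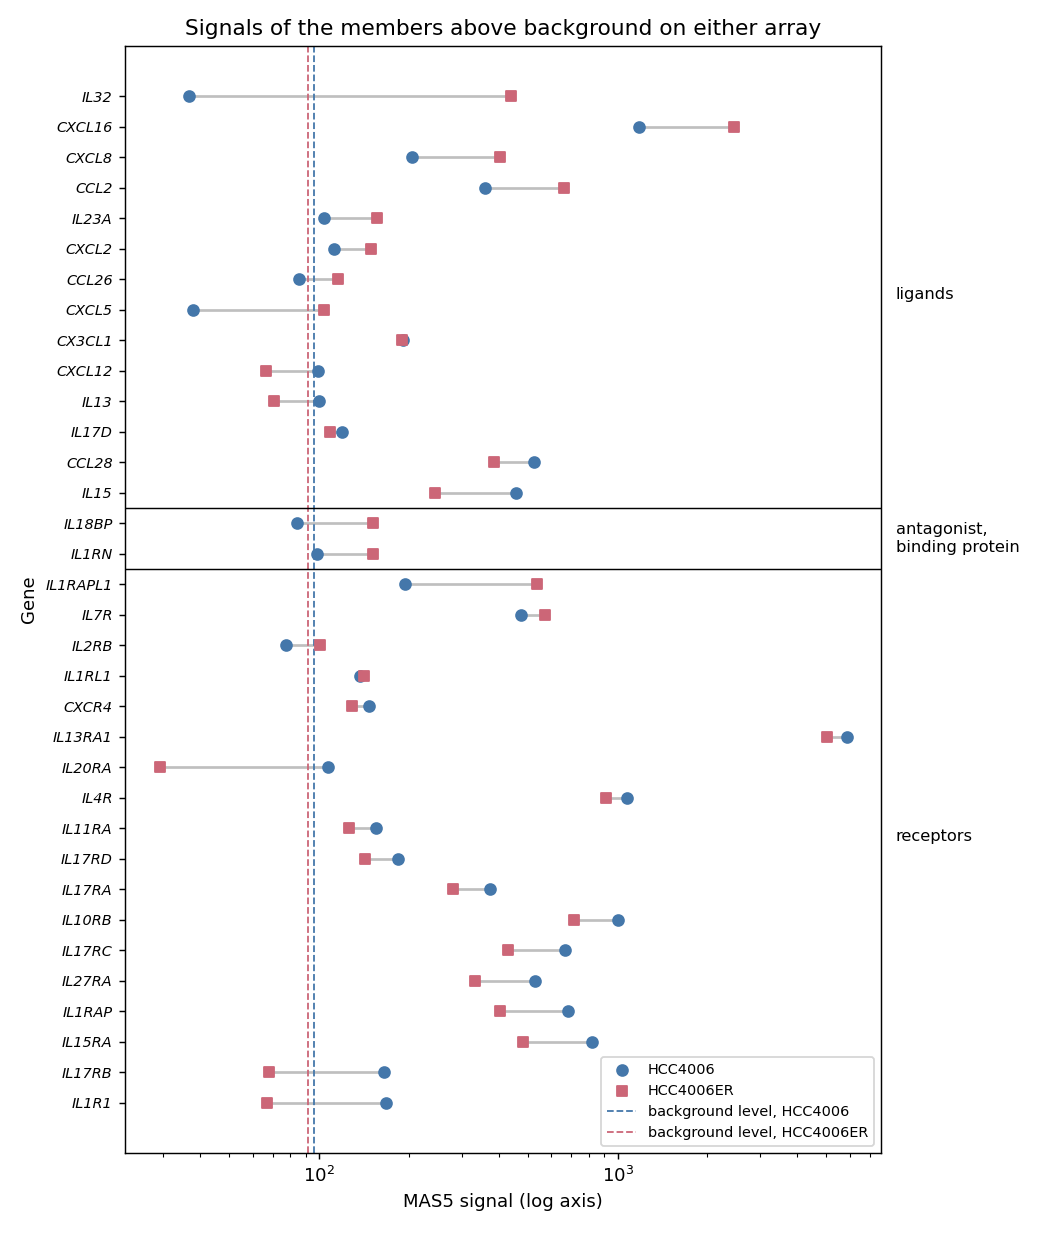
MAS5 signal (log axis) of the 34 genes above background on at least 1 array, with circles for HCC4006, squares for HCC4006ER and dashed lines at the background levels of 96.2 and 91.6. In the upper block of ligands the squares of IL32, CXCL16, CXCL8 and CCL2 lie to the right of the circles, and in the lower block of receptors most squares lie to the left.

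Ligands and receptors were placed differently. Among the 14 ligands above background 5 were higher past 1.5-fold and 1 was lower, and among the 18 receptors 1 was higher and 6 were lower. Over all genes above background 7.99% were higher and 11.2% lower. The median log2 ratio was 0.43 over the ligands and -0.39 over the receptors, against -0.04 over all genes above background. With dim signals set to the background level the ligand median was 0.19, and it was 0.22 when probe sets with a mark for multiple matches gave way to any other of the gene. Genes above background on only 1 array were largely bound to differ in that direction, because the 2 levels, 96.2 and 91.6, lie close. The same medians were therefore taken over genes above background on both arrays. They were 0.42 over 9 ligands, of which 5 were higher and 4 lower by any amount, and -0.34 over 14 receptors. Of those receptors 3 were higher and 11 lower. The ligand median of 0.42 was the value of CXCL2, whose probe set carries the mark for multiple matches. Over all 10849 genes above background on both arrays, 5067 were higher and 5782 lower. These are descriptions of 2 arrays, and the difference between the classes was not tested. Over all 69 ligands and all 53 receptors, most of them under background, the medians were -0.14 and -0.41.

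**Figure D2:**
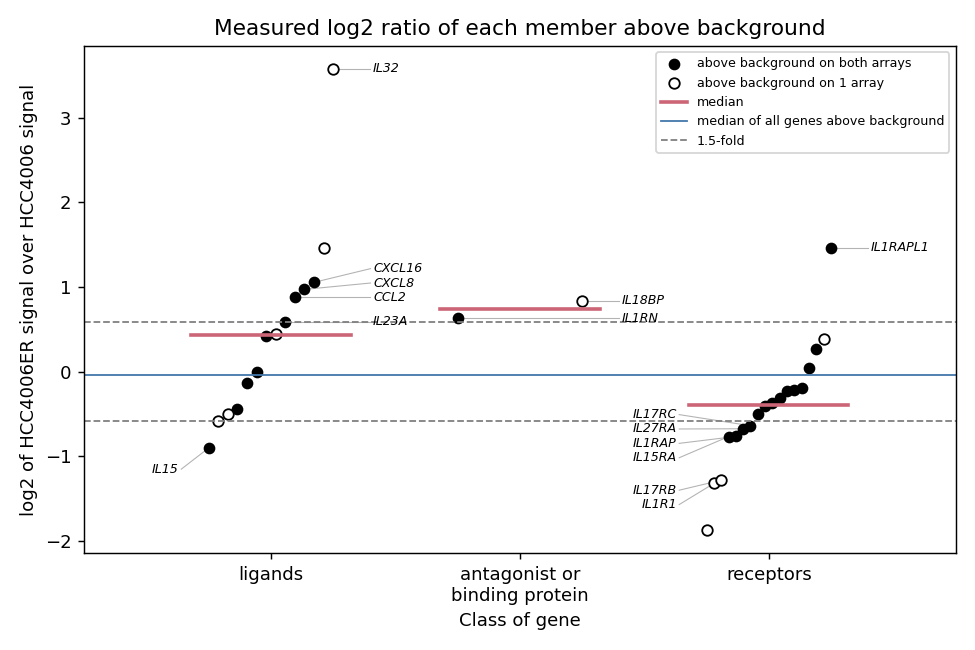
Measured log2 ratio (HCC4006ER over HCC4006) of the 34 genes above background, by class. Filled points are genes above background on both arrays, open points on 1 array, whose measured ratio includes a dim signal; red bars are class medians (0.43 for ligands, -0.39 for receptors), the blue line is the median of all genes above background (-0.04) and dashed lines mark 1.5-fold.

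The CXC chemokines with an ELR motif, which attract neutrophils through CXCR1 and CXCR2, were represented by 6 genes, 3 of them above background. CXCL8 (interleukin-8) read 205 and 402, 1.96-fold higher in HCC4006ER. Its other probe set read 69.3 and 94.7, the second of these just above background. CXCL2 read 112 and 150, a 1.34-fold difference that did not reach 1.5-fold. CXCL5 was above background on the array labelled HCC4006ER alone, at 37.7 and 103, which allows a difference of at least 1.08-fold, and all 3 of its probe sets read higher there. CXCL1 (40.1 and 60.8), CXCL3 (42.3 and 26.2) and CXCL6 (22.7 and 14.7) were under background on both arrays. CXCL1, CXCL2 and CXCL3 are close copies of each other, and the CXCL2, CXCL5 and CXCL8 values rest on probe sets whose names mark possible matches to several transcripts. The 2 CXCL2 probe sets without that mark were under background and disagreed, at 32.2 and 16.0 and at 3.98 and 22.2.

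These 6 genes lie in a single run of 9 protein-coding genes on chromosome 4, from CXCL8 to CXCL2, in which PF4V1, PF4 and PPBP, chemokines best known from platelets, were under background on both arrays. Only CXCL8, CXCL5 and CXCL2 of the 9 were above it. Their promoters are shown because the genes share a recognition sequence for NF-κB and yet differed in signal. Each line gives 80 bases, from 140 to 61 bases before the RefSeq transcription start (GRCh38.p14), 5′ to 3′ on the strand of the gene; capitals mark matches to the NF-κB consensus or to its short form GGAATTTCC, and in CXCL8 the first run of capitals is a match to the AP-1 motif TGANTCA.
CXCL8, chr4:73740429-73740508, plus strand: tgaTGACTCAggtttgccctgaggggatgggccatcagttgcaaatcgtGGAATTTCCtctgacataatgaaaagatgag
CXCL6, chr4:73836538-73836617, plus strand: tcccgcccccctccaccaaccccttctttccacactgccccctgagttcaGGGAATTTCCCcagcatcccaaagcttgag
CXCL1, chr4:73869253-73869332, plus strand: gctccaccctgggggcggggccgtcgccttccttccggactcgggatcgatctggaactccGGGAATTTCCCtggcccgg
CXCL5, chr4:73998738-73998817, minus strand: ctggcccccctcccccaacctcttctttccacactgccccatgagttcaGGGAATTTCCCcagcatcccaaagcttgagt
CXCL3, chr4:74038750-74038829, minus strand: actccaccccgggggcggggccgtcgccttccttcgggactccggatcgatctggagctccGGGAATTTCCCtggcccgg
CXCL2, chr4:74099256-74099335, minus strand: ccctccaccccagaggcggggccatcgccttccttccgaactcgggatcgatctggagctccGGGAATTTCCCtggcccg

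All 6 windows of 300 bases (250 before to 50 after the start) held the short form, which was found in 0.461% of 35116 such windows genome-wide, and 5 of the 6 held the NF-κB consensus, found in 11.3%. CXCL8 differed from the others in 2 ways: it held the short form without the full consensus, and it was the 1 window with the AP-1 motif, found in 7.71%. The stretches of CXCL1 and CXCL3 matched at 75 of 80 positions, and neither gene was above background. Positions were compared without alignment. CXCL2, which was above background, scored 33 of 80 against each, but its consensus match began at -78 from the start, against -79 in both. Its score therefore does not measure how alike the sequences are. The same holds for CXCL5 and CXCL6, at 32 of 80 with matches from -91 and -90. The short form was added to the search after the signals had been seen, both strands were searched, the short form lies inside each consensus match shown, and a match describes letters, not binding.

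CXCL16, a membrane-bound chemokine of epithelia and macrophages that is shed as a ligand of CXCR6, read 1182 and 2456, 2.08-fold higher on the array labelled HCC4006ER. Both signals were far above background. CX3CL1, the other membrane-bound chemokine, read 191 and 190, while its other probe set read 74.3 and 101, above background on the array labelled HCC4006ER alone. CXCL12, the ligand of CXCR4, read 98.9 and 66.1, barely above background on the array labelled HCC4006 alone. The other 7 of these 10 CXC and XC chemokines were under background on both arrays, among them the interferon-induced CXCL9, CXCL10 and CXCL11.

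Of 20 CC chemokines 3 were above background. CCL2, the main monocyte attractant, read 359 and 659, 1.84-fold higher on the array labelled HCC4006ER. CCL28, a mucosal epithelial chemokine, went the other way with 524 and 387, a 1.36-fold difference short of the threshold, and all 3 of its probe sets, all above background on the array labelled HCC4006, read lower. CCL26 (eotaxin-3) read 85.3 and 116, at least 1.20-fold higher. The other genes read in the CCL2 cluster on chromosome 17 did not share its signal: CCL7, CCL11, CCL8 and CCL1 were under background on both arrays, CCL7 at 23.1 and 8.11 and CCL8 at 36.8 and 18.2, and CCL13 was not analysed here. CCL5 and CCL20, often made by stimulated epithelia, were also under background.

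The receptors for these chemokines were mostly under background. Of 16 chemokine receptors only CXCR4, the CXCL12 receptor, was above background, at 147 and 129, and its 2 other probe sets were not. CXCR1 and CXCR2, the receptors of CXCL8, read 21.0 and 20.5, and 12.9 and 7.07. CCR2, the CCL2 receptor, read 48.4 and 57.4, and CXCR6, the CXCL16 receptor, 27.7 and 12.3. The 3 chemokines past 1.5-fold thus stood on arrays where none of these 4 receptors was above background. Among related genes with other symbols, the scavenger receptor ACKR3, which also binds CXCL12, read 297 and 330. The atypical receptor CCRL2 read 213 and 132, 1.61-fold lower. CCRL2 was the only 1 of 8 such genes above background past 1.5-fold, beside 11.2% of all genes above background that were lower.

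IL32, a cytokine of T cells and epithelia that induces other inflammatory cytokines, had the largest difference of the 34. Its single probe set read 36.7, under background, and 439, which is at least 4.56-fold higher. By that bound it ranked 29 of the 11896 genes above background, counted from the highest ratio. A promoter of IL32 is shown with that of IL23A, the other interleukin past 1.5-fold in this direction. Span, build and marking are the same as above, and in IL23A the second run of capitals is the AP-1 match. IL32 has further RefSeq starts, and the stretch shown was chosen because its window held the NF-κB consensus. Its match is therefore no result, and another IL32 window held no such match.
IL32, chr16:3065263-3065342, plus strand: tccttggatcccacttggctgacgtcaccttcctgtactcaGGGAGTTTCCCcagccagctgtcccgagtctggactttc
IL23A, chr12:56338744-56338823, plus strand: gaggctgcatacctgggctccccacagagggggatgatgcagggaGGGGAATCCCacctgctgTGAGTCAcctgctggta

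RefSeq windows were at hand for 6 of the 8 higher and 6 of the 7 lower genes, 12 windows for each, several of them overlapping starts of the same gene. The NF-κB consensus was in 3 of the 12 windows of higher genes and 2 of the 12 of lower genes, against 11.3% of all windows. The AP-1 motif was in 3 of 12 windows in both, from 3 higher genes and 1 lower gene, against 7.71%. The ISRE (GAAANNGAAA), a motif of interferon-induced genes, was in 3 and 0 windows, against 3.57%. Those 3 windows came from 2 genes, because overlapping IL1RN windows held the same site. The C/EBP core (TTNNGNAA) was in 6 windows from 4 higher genes and 3 windows from 2 lower genes, against 36.8%. IL23A, the subunit that makes IL-23 with IL12B, read 104 and 156, 1.50-fold higher and thus at the edge of the threshold. Its 3 other probe sets were under background on both arrays and read lower on the array labelled HCC4006ER, and IL12B itself read 27.4 and 13.3.

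The IL-1 family receptors differed in both directions. IL1R1, the signaling receptor for IL-1, read 167 and 66.8, at least 1.82-fold lower and under background in HCC4006ER. Its other probe set, at 27.1 and 20.0, was under background on both arrays. IL1RAP, the accessory chain that IL1R1 and the receptors of IL-33 and IL-36 share, read 684 and 402, 1.70-fold lower, and its other probe set read 307 and 235. IL1RN, the receptor antagonist that blocks IL1R1, went the opposite way: 98.0 and 152, 1.55-fold higher, and a further probe set above background on the array labelled HCC4006ER read 65.9 and 169. IL18BP, the secreted inhibitor of IL-18, read 84.4 and 151, at least 1.57-fold higher, although its 2 other probe sets, under background, were level. Both chains of the IL-1 receptor complex were therefore lower, and IL1RN and IL18BP were higher with signals close to background. The calls of IL1R1, IL1RN and IL18BP ended when the background was set at the highest olfactory or taste receptor signal. IL36RN, the IL-36 antagonist, was under background.

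IL1RAPL1, a synaptic member of the IL-1 receptor family known mainly from neurons, read 194 and 535, 2.76-fold higher, and its second probe set read 175 and 264, also higher. It was the only receptor of the 18 above background past 1.5-fold in this direction. IL1RL1, the IL-33 receptor, read 137 and 141. In the cluster of 6 IL-1 receptor genes on chromosome 2, IL1R1 and IL1RL1 were above background and IL1R2, IL1RL2, IL18R1 and IL18RAP were not. All 6 IL-1 family ligands among the genes, including IL33, IL36G and IL37, were under background on both arrays.

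IL15 and its private receptor chain were both lower. IL-15 is presented on the cell surface by IL15RA to lymphocytes that carry IL2RB and IL2RG. IL15 read 456 and 244, 1.87-fold lower on the array labelled HCC4006ER, and its second probe set gave nearly the same log2 ratio, -0.91 against -0.90. IL15RA read 824 and 483, 1.70-fold lower. IL2RB was within the threshold at 77.3 and 101, and IL2RG, at 90.0 and 73.6, was under background.

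The remaining receptors of this cytokine group differed less. IL13RA1 and IL4R, which together form the receptor through which epithelial cells respond to IL-4 and IL-13, read 5847 and 5026, and 1073 and 913, ratios of 1.16 and 1.18 toward HCC4006. All 4 probe sets of IL13RA1 were lower on the array labelled HCC4006ER, with log2 ratios of -0.46 to -0.22. Neither gene reached 1.5-fold, and IL13 itself was above background on the array labelled HCC4006 alone, at 99.8 and 70.6. IL7R, the IL-7 receptor chain, read 474 and 570, a log2 ratio of 0.26, while its other probe set read 352 and 701, a log2 ratio of 0.99, so that its call depended on the probe set. IL7, its ligand, was under background. Of the 21 genes of this group 7 were above background, with 0 higher and 2 lower past 1.5-fold. Over all genes above background 7.99% were higher and 11.2% lower.

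In the IL-17 family all 5 genes above background read lower on the array labelled HCC4006ER, except that IL17D was level (log2 ratio 0.0029) after scaling to equal medians. Of all genes above background 54.0% read lower there by any amount before that scaling. IL-17 cytokines act on epithelia through IL17RA, paired with IL17RC for IL-17A and IL-17F or with IL17RB for IL-25. IL17RB read 165 and 67.9, at least 1.81-fold lower, and its 2 other probe sets also read lower, one of them at 136 and 28.1. IL17RC read 668 and 428, 1.56-fold lower, with 2 more probe sets above background at 198 and 89.1 and at 118 and 27.7. IL17RA read 373 and 280, a 1.33-fold difference short of the threshold. Its 3 other probe sets disagreed, reading 354 and 206, 197 and 34.2, and 81.5 and 117. IL17RD, which restrains FGF and ERK signaling, read 184 and 142, and the ligand IL17D 120 and 109. IL17A, IL17B, IL17C, IL17F and IL25 were under background on both arrays.

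No receptor of the IL-10, IL-12 and IL-11 groups was higher past 1.5-fold, beside 7.99% of all genes above background that were higher. IL10RB, shared by the receptors for IL-10, IL-22 and the lambda interferons, read 1006 and 712, a 1.41-fold difference just under the threshold. IL20RA, which pairs with IL10RB or IL20RB, read 107 and 29.2, at least 1.17-fold lower, and its other 2 probe sets, under background, were also lower. IL27RA, the private chain of the IL-27 receptor, read 530 and 332, 1.60-fold lower, and a second probe set read 393 and 281. IL11RA, the private chain of the IL-11 receptor, read 155 and 125, a log2 ratio of -0.31, but its other probe set was level at 130 and 131. IL22RA1, IL10RA, IL12RB1, IL12RB2 and IL23R were under background on both arrays.

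Several of these genes were read by more than 1 probe set above background. Of 15 such genes, 12 had all of those probe sets in a single direction, and the exceptions were CX3CL1, IL11RA and IL17RA, none of them past 1.5-fold. IL32, CXCL16, CCL2 and IL15RA had 1 probe set each and so no second reading. Averaging the log2 signals of all probe sets of a gene ended the calls of IL18BP, IL1RN, IL23A, IL1R1, IL1RAP and IL27RA. It also brought IL7R and IL17RA past 1.5-fold. Leaving out probe sets marked as matching several transcripts, where the gene had another, ended the call of IL1RN. That was the only call this step could change. CCL2, IL32, CXCL8, IL18BP, IL15, IL15RA and IL17RB had only marked probe sets, and the other called genes already rested on unmarked ones.

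**Figure D3:**
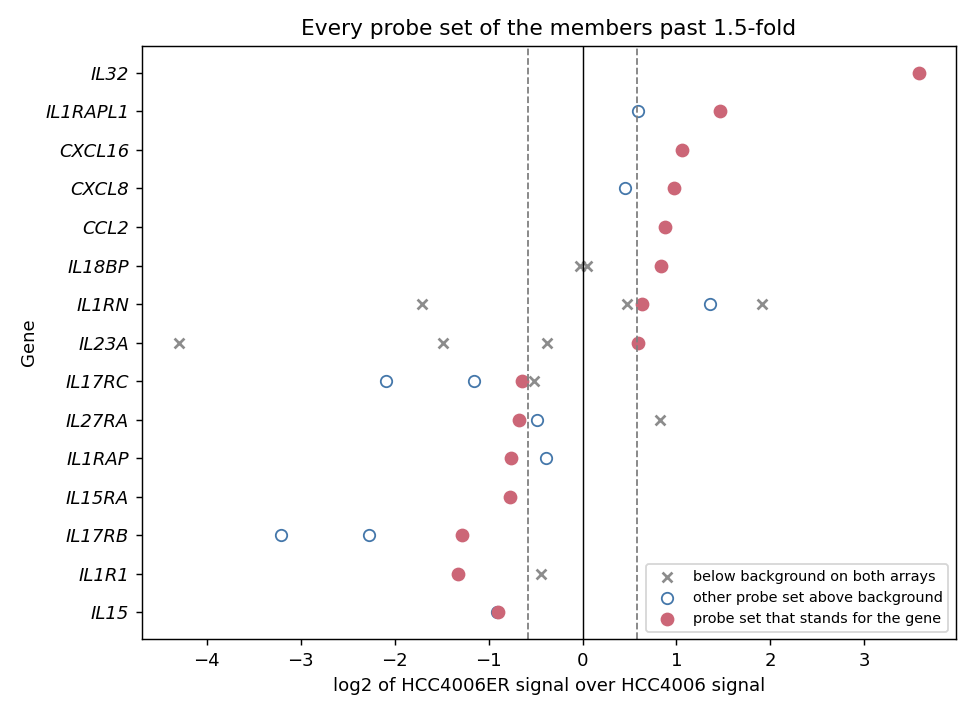
Log2 ratio (HCC4006ER over HCC4006) of every probe set of the 15 genes past 1.5-fold; filled points are the probe sets that stand for the gene, open circles other probe sets above background and crosses probe sets under background on both arrays, and dashed lines mark 1.5-fold. All open circles lie on the same side of 0 as the filled point of their gene, and the crosses of IL23A, IL1RN, IL18BP and IL27RA do not all do so; the 2 points of IL15 coincide.

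The genes that carry or restrain these signals inside the cell were read from lists chosen beside the 127, with earlier results of these data known. The share to set beside each count below is that over all 11896 genes above background, 7.99% higher and 11.2% lower. Of 13 NF-κB genes, all above background, 4 were higher past 1.5-fold on the array labelled HCC4006ER and 1 was lower, with a median log2 ratio of 0.51. NFKBIE, an inhibitor that NF-κB itself induces, read 510 and 1775, 3.48-fold higher. NFKB2, which encodes p100, read 241 and 563, 2.34-fold higher. TNFAIP3 (A20), a feedback inhibitor, read 388 and 809, 2.08-fold higher, and the kinase CHUK read 1438 and 2378, 1.65-fold higher. NFKBIZ, a co-activator of IL-17 and IL-1 target genes, read 773 and 445, 1.74-fold lower. NFKBIA lay just inside the threshold, at 4121 and 6177 (1.50-fold after rounding).

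Of 13 JAK and STAT genes 1 was higher and 1 lower, near the shares over all genes (7.99% and 11.2%), with a median log2 ratio of 0.11. SOCS2, a feedback inhibitor of cytokine receptors, read 1094 and 2154, 1.97-fold higher, and CISH, a related STAT5-induced inhibitor, read 831 and 409, 2.03-fold lower. JAK1, STAT3 and STAT6 were within 1.5-fold. Among 18 receptor partners and adaptors, 12 were above background and 2 were higher: IFNLR1, the lambda interferon receptor chain that pairs with IL10RB, at 94.3 and 200 (at least 2.08-fold), and the kinase IRAK1, which acts below IL-1 receptors, at 8461 and 15570 (1.84-fold). MYD88, the adaptor before it, read 3968 and 3279 and was within the threshold.
Of 13 G protein signaling genes 11 were above background, with 1 higher and 2 lower: GNAI2, a subunit used by chemokine receptors, at 964 and 1489 (1.54-fold), ARRB1 (beta-arrestin 1) at 501 and 294 (1.71-fold), and RGS2, which shortens G protein signals, at 807 and 188 (4.30-fold).

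**Figure D4:**
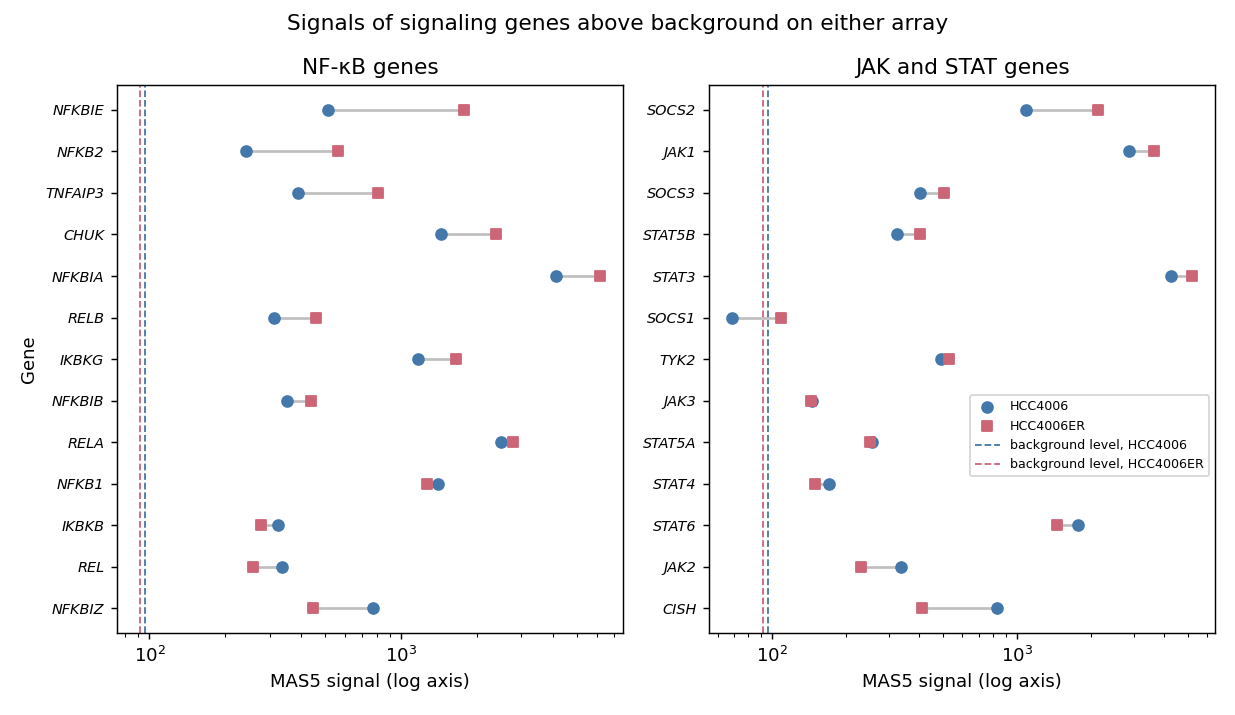
MAS5 signal (log axis) of the 13 NF-κB genes (left) and the 13 JAK and STAT genes (right) above background, circles for HCC4006, squares for HCC4006ER and dashed lines at the background levels. In the left panel the squares of NFKBIE, NFKB2, TNFAIP3 and CHUK lie past 1.5-fold to the right and that of NFKBIZ to the left; in the right panel only SOCS2 and CISH are past 1.5-fold.

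Many of these genes are leukocyte genes, so markers of other cells were read beside them. Of 15 leukocyte markers, 4 were above background in HCC4006 and 2 in HCC4006ER, none was past 1.5-fold, and their summed signal was 1002 and 786. PTPRC (CD45), the general leukocyte marker, was under background at 46.9 and 31.8, and so were CD3D, CD14, LYZ and TYROBP. Above it were CD79A, a B cell gene, at 198 and 229, the leukocyte gene CD53 at 138 and 110, and, in HCC4006 alone, LAPTM5 at 110 and 69.2 and CD3E at 98.0 and 58.6. Of 10 fibroblast markers COL1A1 was above background on both arrays, at 591 and 965 (1.63-fold higher), and THY1 on the array labelled HCC4006, while LUM, DCN, COL3A1 and PDGFRB were under it; the summed signal was 1074 and 1223, and its part in the differences above was not tested. Of 6 endothelial markers PECAM1 alone was above background. Of 9 lung epithelial carcinoma markers 8 were above background and none was past 1.5-fold. EPCAM, CDH1, KRT8 and KRT18 read higher on the array labelled HCC4006ER and KRT7 and KRT19 lower, all far above background on both arrays. NAPSA, at 97.3 and 66.9, was above background in HCC4006 alone, and SFTPB, at 69.4 and 138, in HCC4006ER alone. The lung lineage gene NKX2-1 was under background on both.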

How the data were processed

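The authors deposited 1 MAS5 signal intensity per probe set and array, on a linear scale, scaled by them and without detection calls; the submitters' processing notes also name GCOS 1.4. RNA from 3 preparations per cell line was pooled before labelling, for which the labels give 100 ng. Of 54675 probe sets, 41097 carried a single symbol in the platform annotation and were used, while 1801 with several symbols and 11777 without an entry were not; 41043 matched RefSeq (GRCh38.p14) by gene identifier. Where a gene had several probe sets, the one whose log2 signals averaged highest stood for it. No p-value was computed; the number of arrays limits the precision. The gene step was tested on simulated data, with known folds placed only in bright genes and larger than most of those called here. That test does not cover calls near the 1.5-fold threshold or near background. The members, role groups, gene lists and thresholds were chosen with earlier results of these data known. All members past 1.5-fold were named with their values. Promoter sequences came from RefSeq. Calculations used numpy 2.4.6, scipy 1.17.1 and pandas 2.3.3 under Python 3.11.15, and figures matplotlib 3.10.9.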

Additional observations from a re-analysis of the deposited data

How the results depend on the processing

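The 8 higher and 7 lower genes numbered 26 and 47 when the measured ratio of all 127 was used with no filter on low signals. That count has no share over all genes beside it. At 2-fold the higher and lower genes numbered 3 and 0, against 2.38% and 3.56% of all genes above background. With the background set at the highest olfactory or taste receptor signal 5 were higher and 5 lower. Of all genes above that level 7.77% were higher and 9.30% lower. IL18BP, IL1RN, IL23A, IL17RB and IL1R1 lost their calls there. With the background at the 75th percentile 9 were higher and 14 lower, against 8.05% and 14.7% of all genes above it. The number above background was 22 and 60 at those 2 levels. Quantile normalization kept all 15 calls. The measured log2 ratio of IL23A was -1.39 averaged over its probe sets and -4.30 with the probe set of the largest difference, where IL27RA was 0.83; both largest differences came from probe sets under background. The median over ligands was 0.88 at the highest background level and -0.14 over all 69 ligands, while the median over receptors ran from -0.48 to -0.25 under all 9 alternatives. No paired analysis was possible because each cell line had 1 array.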
